A study of Mus musculus with 12 samples.

Results

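Curcumin and aged garlic extract, 2 plant-derived treatments given to diabetic mice, were compared with each other in the hypothalamus, the brain region that sets appetite, energy use and pituitary output. All 3 libraries of curcumin-treated mice and both libraries of garlic-treated mice were taken, 5 of the 12 libraries of the series, and every gene with enough counts entered the comparison, 25562 of 78334 gene IDs in the count table. Both groups were male C57BL/6 mice that had received streptozotocin (70 mg/kg, by intraperitoneal route, on postnatal day 2), a toxin of the insulin-producing beta cells, and then a high-fat diet (60% of energy as fat) for 8 weeks from 3 weeks of age. For 28 days, one group received curcumin (50 mg/kg) and the other aged garlic extract (200 mg/kg) by daily gavage. The doses thus differ, and the labels do not say that each library came from a separate animal. The other 7 libraries are 4 of diabetic mice with vehicle and 3 of control mice on a standard diet with vehicle, for which no streptozotocin is given. One protocol text starts the treatments at week 7 of the diet and another after 11 weeks, so the timing is unresolved.

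Curcumin is the yellow polyphenol of turmeric and is studied as an antioxidant and as an inducer of the NRF2 pathway, in which the transcription factor NRF2 switches on detoxifying and glutathione genes. Aged garlic extract is rich in sulfur compounds such as S-allylcysteine, and garlic compounds are linked to hydrogen sulfide, a gas signal made from cysteine by the enzymes CBS and CTH. The hypothalamus is a mosaic of small nuclei, each with its own neuropeptides and transcription factors, so the level of many of its genes depends on which nuclei and which neighbouring tissue a dissection holds. In whole tissue, fewer cells of a type and less RNA per cell cannot be told apart.

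The 5 libraries held between 18332013 and 21952253 counts, so depth differed little between them. At the lowest depth of the series the curcumin libraries would hold 20917, 29126 and 22337 genes with a count, and the garlic libraries 33125 and 34719. More genes were thus detected in both garlic libraries than in any curcumin library. Spearman correlations across genes, which are not independent replicates, were 0.883 to 0.902 among the curcumin libraries and 0.952 between the garlic libraries. Curcumin replicate 2 was closer to the garlic libraries (0.954 and 0.946) than to the other curcumin libraries (0.883 and 0.902). Garlic replicate 1 was closest to control replicate 1 (0.983) and garlic replicate 2 to control replicate 3 (0.966). The libraries thus did not group by treatment. With the number of detected genes as a covariate edgeR called 0 genes. As this number was higher in both garlic libraries, the covariate and the treatment cannot be fully told apart, and changes under it are uncertain. Of 36 gene lists 24 kept the sign of their median log2 change under the covariate, and the lists described below that did not are given with that value. Some medians grew under it, from -0.49 to -3.71 for hypothalamic transcription factors and from 1.30 to 3.81 for midbrain and brainstem genes.

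One curcumin library went against its tissue label. The library labelled curcumin replicate 2 was at or near 0 for genes that define the hypothalamus. Nkx2-1, a factor that patterns the ventral hypothalamus, stood at 47.7, 0.0496 and 35.3 CPM (counts scaled to a common library size) with curcumin and at 33.4 and 28.6 CPM with garlic extract, listed here and below by replicate number. Otp, a factor of peptide neurons, stood at 41.0, 0.199 and 45.2 CPM with curcumin and at 41.5 and 81.3 CPM with garlic extract. The peptides Avp (0.348 CPM), Pmch (0.447 CPM) and Hcrt (0 CPM) were as low in that library. Some genes of neighbouring regions, picked after their values were seen, were high in that library. Tcf7l2, a thalamic factor, stood at 325 CPM, Shox2 at 94.8 CPM, En1, a midbrain factor, at 26.7 CPM and Pvalb at 282 CPM. In no other curcumin or garlic library did these 4 genes exceed 37.1, 3.50, 0.177 and 33.2 CPM. The control and diabetes libraries reached up to 90.3, 20.8, 1.435 and 47.0 CPM.

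The remaining libraries also differed in regional genes. Curcumin replicate 1 held Slc6a3, the dopamine transporter of midbrain neurons, at 71.6 CPM, while the other 4 libraries held 0.248 to 5.40 CPM. Garlic replicate 1 was high in genes of the striatum and basal forebrain, with Adora2a at 23.1 CPM against 1.84 CPM in garlic replicate 2, Drd1 at 16.2 against 5.63 CPM and Ppp1r1b at 86.0 against 18.5 CPM. A list score, the median over the genes of a list of log2 CPM minus each gene's mean over the 12 libraries, put these patterns in 1 scale. For 30 hypothalamic transcription factors it was 0.05, -5.01 and 0.42 with curcumin and 0.36 and 0.58 with garlic extract. For the 20 tested midbrain and brainstem genes it was -0.13, 2.04 and -0.13 with curcumin and 0.21 and -0.19 with garlic extract. The 24 thalamic and habenular genes scored 0.24 in curcumin replicate 2, within the range of the control libraries (0.11 to 1.09). That list as a whole was thus not high there, unlike Tcf7l2 and Shox2.

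**Figure D1:**
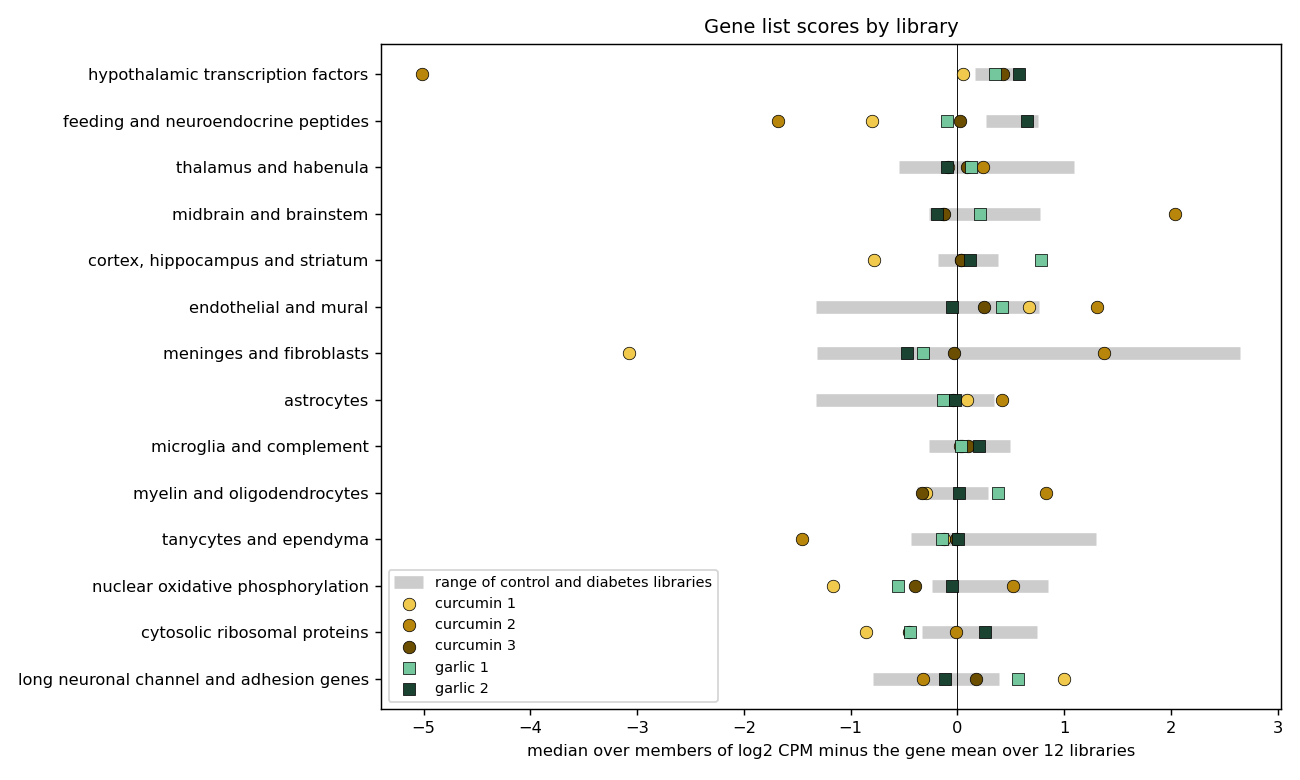
Scores of 14 gene lists in each curcumin library (circles) and garlic library (squares), with the range of the 7 control and diabetes libraries as a grey bar; the x axis is in log2 units. Curcumin replicate 2 lies at -5.01 for hypothalamic transcription factors and at 2.04 for midbrain and brainstem genes, away from the other libraries in both.

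No gene passed an adjusted p of 0.05 between curcumin and garlic extract, 0 higher and 0 lower of 25562 tested (0.0% in either direction; edgeR quasi-likelihood test with Benjamini-Hochberg adjustment). At an unadjusted p under 0.05, 118 genes were higher with curcumin (0.462% of those tested) and 290 were lower (1.13%), 408 in all (1.6%). In 1076 genes (4.21%) all 3 curcumin libraries lay above both garlic libraries, and in 2532 genes (9.91%) all 3 lay below. With 3 libraries against 2, many genes separate in this way without any group difference, and their expected number was not computed. Neither these shares nor the lack of overlap in a gene named below therefore shows an effect of treatment. The 1.6% with an unadjusted p under 0.05 is also less than that threshold allows without any difference. The median log2 change over all genes was 0.01, and the difference of group means of log2 CPM had a median of -0.12. The limma-voom median was -0.15. The common biological coefficient of variation, a summary over all genes tested, was 0.808. The test fitted the spread gene by gene, so this value is not the spread of each gene. Log2 changes and their SE below are from this edgeR test. Its adjusted p was 0.711 for Slc5a7 and Foxd2, 0.885 for Ddn and Nts, and 1 for every other gene whose log2 change is given, so the values describe genes that did not pass unless another test is named.

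**Figure D2:**
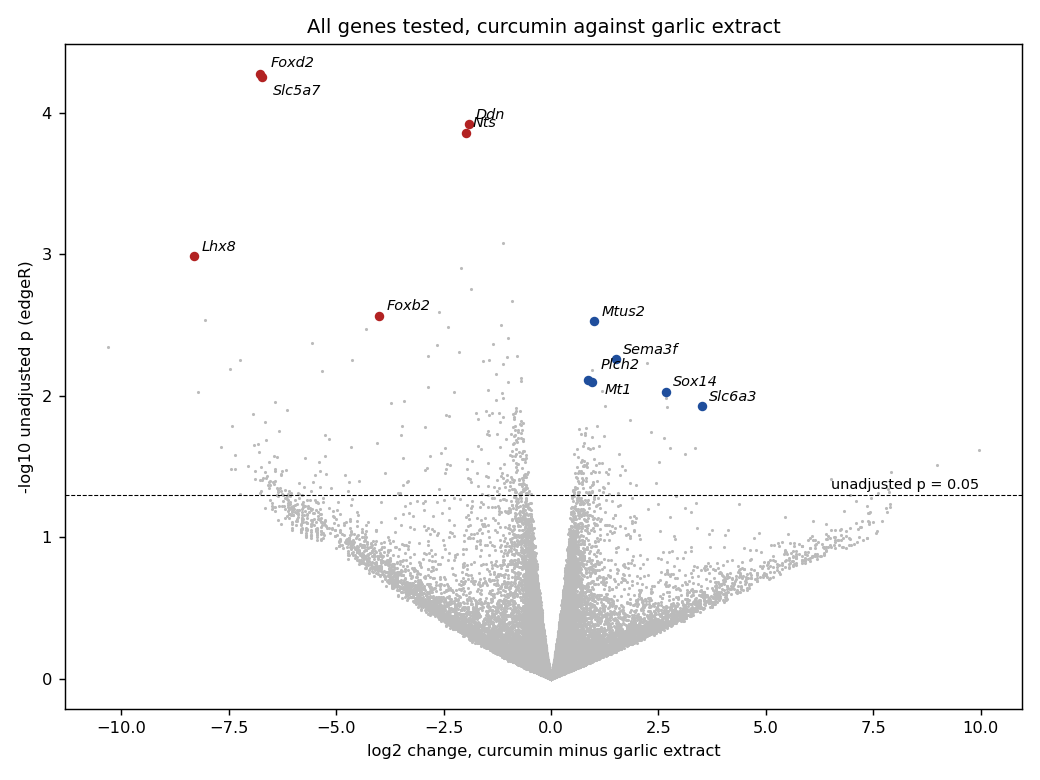
Each of the 25562 genes tested is a point, with the log2 change (curcumin minus garlic extract) on the x axis and -log10 of the unadjusted edgeR p on the y axis; named genes are red where lower and blue where higher with curcumin. Points of small p are more frequent on the lower side, where Slc5a7 and Foxd2 lead, and no gene passed after adjustment.

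The genes of smallest p were at much lower levels with curcumin. Slc5a7 encodes the choline transporter of acetylcholine-making neurons. It had 0, 2 and 2 counts with curcumin and 280 and 54 with garlic extract, and levels of 0, 0.0993 and 0.0991 CPM against 12.4 and 2.84 CPM. The groups did not overlap, and the curcumin libraries also lay below all 4 diabetes libraries (1.64 ± 0.234 CPM, SD) and all 3 control libraries (2.10 ± 0.63 CPM). Both garlic libraries in turn lay above all 7 of these, garlic replicate 1 by far the most. From the pooled counts the garlic level was 123 times the curcumin level (95% exact interval 47.8 to 456, counting error only). The log2 change was -6.73 ± 1.30 (SE), with an adjusted p of 0.711 in edgeR, and -5.29 without garlic replicate 1. DESeq2 called it, with an adjusted p of 4.73e-05.

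Foxd2, which encodes a forkhead transcription factor, had counts of 0, 1 and 0 with curcumin and 87 and 20 with garlic extract. It was named after its values were seen, as its mean was just under the level the naming rule required. Levels were 0, 0.0496 and 0 CPM against 3.85 and 1.05 CPM, and 4.95 ± 2.01 CPM in diabetes and 2.41 ± 0.40 CPM in control. All 3 curcumin libraries thus lay below each of the other 9 libraries, while garlic replicate 1 lay within the range of the untreated libraries and garlic replicate 2 below it. The pooled ratio was 158 (27.8 to 6305), and the log2 change was -6.77 ± 1.30 with an adjusted p of 0.711 in edgeR and 0.00664 in DESeq2.

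Lhx8 encodes a LIM homeobox factor that specifies cholinergic neurons of the basal forebrain. Its counts were 0, 1 and 0 with curcumin and 243 and 65 with garlic extract, and its levels 0, 0.0496 and 0 CPM against 10.8 and 3.42 CPM. Here 2 diabetes libraries were at 0 as well and the other 2 stood at 1.58 and 2.00 CPM, so absence was not particular to curcumin, and both garlic libraries lay above all 10 others. The log2 change was -8.30 ± 2.14 (adjusted p = 1 in edgeR and adjusted p = 0.0491 in DESeq2), and the pooled ratio 455 (81.1 to 18040). Chat, the enzyme that makes acetylcholine, stood at 1.51, 0.348 and 0.892 CPM with curcumin and at 5.23 and 1.90 CPM with garlic extract. Slc18a3, which loads acetylcholine into vesicles, stood at 1.99, 0 and 0 CPM against 1.24 and 0.105 CPM and overlapped. Slc5a7, Lhx8 and Chat were highest in garlic replicate 1, as were the striatal genes given above. The part of tissue makeup in these values was not tested.

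Ddn, among the next ranks, encodes dendrin, a protein of forebrain dendrites. It stood at 24.9, 22.4 and 23.2 CPM with curcumin and at 143 and 35.1 CPM with garlic extract, against 46.5 ± 10.4 CPM in diabetes and 40.0 ± 7.33 CPM in control. The curcumin libraries were the lowest 3 of the series and close to each other, while the garlic libraries differed from each other by more than the gap between the groups. Its log2 change was -1.92 ± 0.40 (adjusted p = 0.885 in edgeR and adjusted p = 0.0491 in DESeq2), and without garlic replicate 1 it was -0.56, so its size rested on that library. Without garlic replicate 2 edgeR called it (-2.61, adjusted p = 0.00025), with garlic replicate 1 as the lone garlic library, assumed to vary like the libraries of the other groups. Of the 23 tested genes of cortex, hippocampus and striatum, 4 lay below both garlic libraries in all curcumin libraries (17.4%, beside 9.91% of all genes) and 0 above. The list's median log2 change was -0.22, and without garlic replicate 1 it was 0.23, so its direction rested on that library. Summed over the list, levels were 1214, 1878 and 981.9 CPM with curcumin and 1551 and 1063 CPM with garlic extract.

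Several homeobox factors, picked after their values were seen, were lower in every curcumin library than in both garlic libraries, and none passed the test. Dlx2, a homeobox factor of inhibitory neurons of the forebrain and hypothalamus, stood at 5.44, 0 and 2.92 CPM against 17.5 and 17.8 CPM (log2 change -2.65 ± 0.82). It was below all 7 untreated libraries, where it averaged 16.2 ± 4.87 CPM in diabetes and 14.5 ± 1.23 CPM in control. With curcumin replicate 2 set aside, the other curcumin libraries still lay below every garlic, diabetes and control library. Dlx1, Dlx6 and Lhx6, of the same neurons, stood at 0.0993 to 20.0, 0 to 15.4 and 0.248 to 8.72 CPM against 21.6 and 36.2, 17.3 and 26.4, and 29.6 and 8.95 CPM. For Lhx6 and Dlx6 the gap between the nearest libraries was small (8.72 against 8.95 CPM and 15.4 against 17.3 CPM).

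Of all 30 hypothalamic transcription factors, 7 lay below both garlic libraries (23.3%, beside 9.91% of all genes), among them Dlx2, Dlx1, Dlx6, Lhx6, Rax and Pou3f2, and 1, Sox14, lay above. The median log2 change was -0.49. Without curcumin replicate 2 it was -0.10, and 9 of 30 factors (30.0%, beside 26.1% of all genes) lay below and 4 (13.3%, beside 12.6%) above. The list as a whole was therefore near the background once that library was left out. Foxb2, a forkhead factor that is not on the list, stood at 0.284, 0 and 0.248 CPM against 3.23 and 2.63 CPM, below each of the other 9 libraries (log2 change -4.0 ± 1.16).

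**Figure D3:**
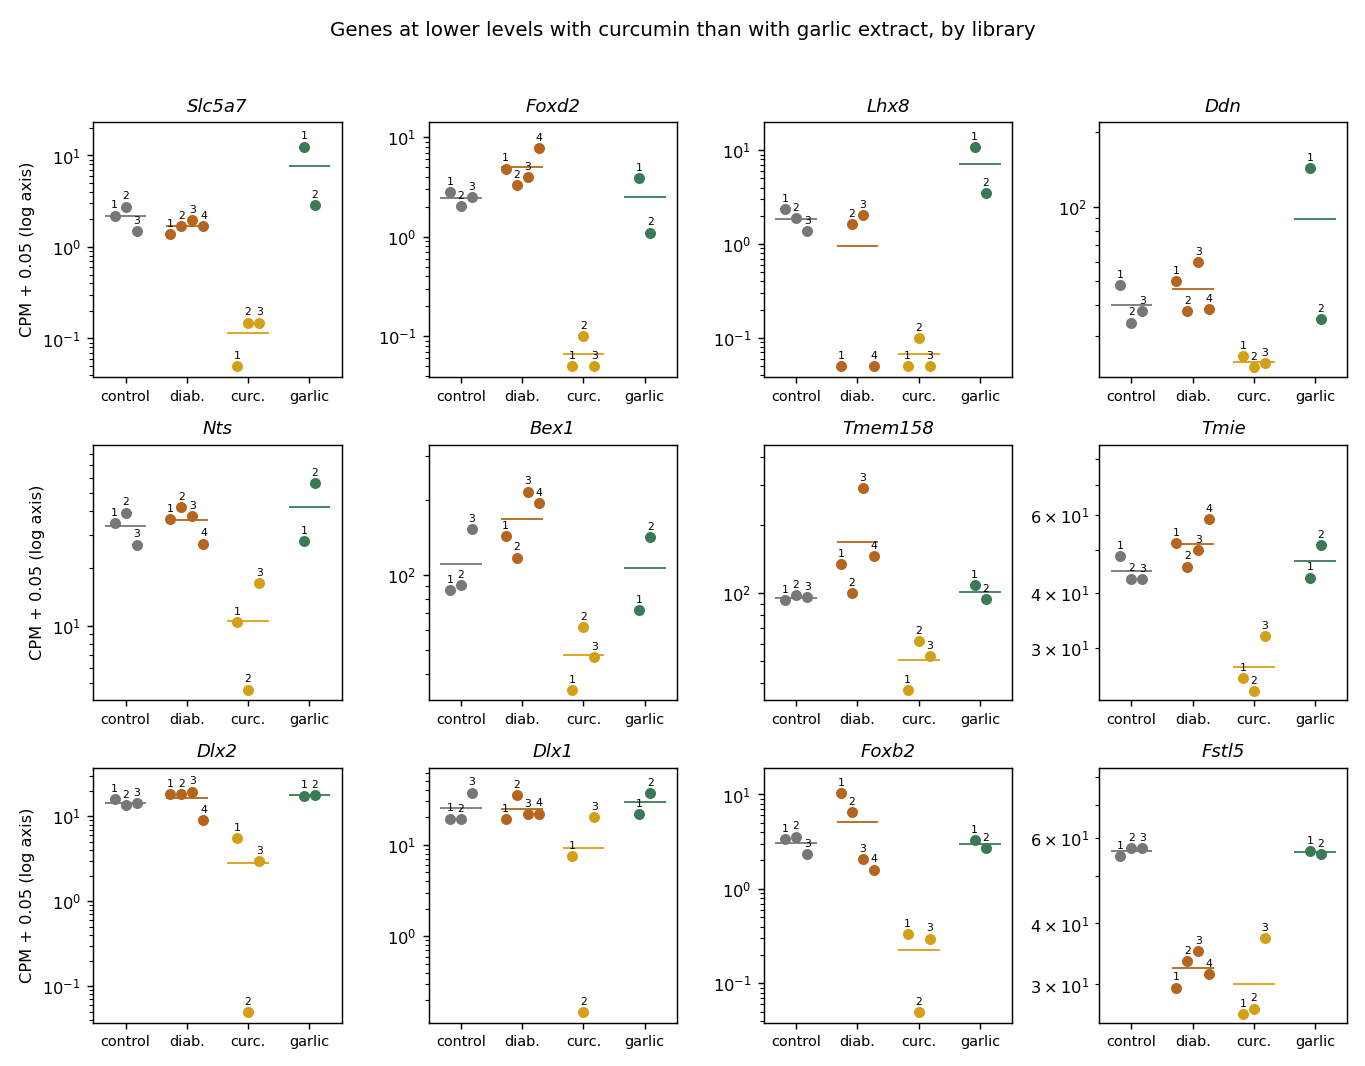
CPM of 12 genes that were lower with curcumin, each point a library with its replicate number and each bar the group mean; the y axis is CPM plus 0.05 on a log scale. For Slc5a7, Foxd2, Nts, Bex1, Tmem158, Tmie, Dlx2, Foxb2 and Ddn the 3 curcumin libraries are below every other library, and for Fstl5 they are with the diabetes libraries.

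Neuropeptides had a negative median in each setting that left out 1 library. Nts encodes neurotensin, a peptide that restrains feeding. It stood at 10.4, 4.57 and 16.6 CPM with curcumin and at 27.8 and 55.9 CPM with garlic extract, beside 35.8 ± 6.37 CPM in diabetes and 33.5 ± 6.37 CPM in control. Each curcumin library was below all 9 others, also with replicate 2 set aside. Garlic replicate 1 lay within the untreated range and garlic replicate 2 above it. The log2 change was -1.99 ± 0.42 (adjusted p = 0.885 in edgeR), and without garlic replicate 1 edgeR called it (-2.40, adjusted p = 0.038). That fit has garlic replicate 2 as its lone garlic library, the higher of the pair, with the spread taken from the other groups.

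Of 34 tested peptide genes, 11 lay below both garlic libraries in every curcumin library (32.4%, beside 9.91% of all genes) and 0 lay above. These were Nts, Hcrt, Crh, Tac2, Pdyn, Penk, Pnoc, Gal, Npvf, Ucn3 and Prok2. Penk, which encodes the enkephalins, stood at 72.0, 113 and 94.9 CPM against 186 and 119 CPM (log2 change -0.70 ± 0.26, and -0.33 without garlic replicate 1). Crh, the hormone that starts the stress axis, stood at 3.31, 2.93 and 8.23 CPM against 14.8 and 12.1 CPM (-1.47 ± 0.63). Hcrt, the arousal peptide orexin, stood at 13.9, 0 and 30.8 CPM against 34.6 and 59.8 CPM (-1.66 ± 0.97). For Hcrt, Pdyn, Gal and Tac2 curcumin replicate 2 was the lowest library, as it was for the hypothalamic factors above.

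The peptide list's scores were -0.80, -1.68 and 0.02 with curcumin and -0.09 and 0.66 with garlic extract. The groups thus overlapped, and garlic replicate 1 scored below every diabetes and control library. Summed levels overlapped as well, at 1317, 1185 and 2549 CPM against 2000 and 3497 CPM. The list's median log2 change was -0.74, beside 0.01 over all genes. Without curcumin replicate 2 it was -0.70, with 15 of 34 below (44.1%, beside 26.1% of all genes) and 0 above (beside 12.6%), and over the 5 ways of leaving 1 library out it ran from -1.28 to -0.36. The magnocellular peptides Avp and Oxt, hormones of water balance and of lactation and social behaviour, varied widely between libraries. Avp stood at 48.8, 0.348 and 336 CPM with curcumin and at 149 and 816 CPM with garlic extract, so the groups overlapped (log2 change -1.91 ± 1.10, with -4.29 without curcumin replicate 3 and -0.22 without garlic replicate 2). Oxt stood at 59.7, 0.645 and 282 CPM against 249 and 510 CPM (-1.73 ± 1.02, with -3.65 and -1.14 without those libraries). Avp was also below every diabetes library (1199 ± 575 CPM) in all curcumin libraries, whereas garlic replicate 2 lay within their range and garlic replicate 1 below it.

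Appetite peptides of the arcuate nucleus overlapped between the treatments. The log2 changes of Pomc, Cartpt and Npy were negative (-0.49 ± 0.88, -0.37 ± 0.525 and -0.6 ± 0.71). Without curcumin replicate 2 they were 0.002, 0.045 and -1.79. Pomc, the precursor of the satiety peptide alpha-MSH, stood at 41.6, 3.87 and 75.1 CPM with curcumin and at 8.95 and 104 CPM with garlic extract. Cartpt, often made by the same neurons, stood at 64.8, 21.8 and 171 CPM against 67.5 and 154 CPM. Both overlapped between the treatments. Agrp, a hunger peptide, was at or below 1.34 CPM in all 5 libraries, which is too low to compare, and Npy ranged from 4.31 to 25.9 CPM with curcumin against 17.3 and 20.3 CPM. Of the receptors, Mc4r, through which alpha-MSH acts, was lower in every curcumin library (1.85, 2.73 and 2.23 against 3.72 and 3.95 CPM). Lepr, the leptin receptor, stood at 15, 2.43 and 1.78 CPM against 3.68 and 2.47 CPM, high in curcumin replicate 1 only. Insr, the insulin receptor, overlapped at 89.8, 38.8 and 49.3 against 68.0 and 56.6 CPM. In the list of 32 insulin and leptin signalling genes the median log2 change was 0.18, with 3 above both garlic libraries (9.38%, beside 4.21% of all genes), namely Akt2, Socs3 and Igf1, and 1, Mc4r, below (3.12%, beside 9.91%). Without curcumin replicate 2, 12 lay above (37.5%, beside 12.6%), and without garlic replicate 1 also 12 (37.5%, beside 15.3%). The median turned to -0.02 without curcumin replicate 1 and to -0.09 with the covariate for detected genes.

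Some small neuronal proteins were lower with curcumin. Of the 29 genes of that list, 2 lay below both garlic libraries (6.9%, beside 9.91% of all genes) and 0 above. The list's median log2 change was -0.37, and it was -0.60 without curcumin replicate 2. It turned to 0.04 without garlic replicate 2 and to 0.205 with the covariate for detected genes. Bex1, a small protein of neurons, stood at 34.5, 61.4 and 46.6 CPM with curcumin and at 72.0 and 141 CPM with garlic extract (log2 change -1.16 ± 0.34, and -0.60 without garlic replicate 2). Tmem158 stood at 37.4, 61.4 and 52.7 CPM against 109 and 94.1 CPM (-1.01 ± 0.34) and Tmie at 25.7, 24.0 and 32.0 CPM against 43.2 and 51.1 CPM (-0.79 ± 0.25). These 3 genes were below every other library of the series in all 3 curcumin libraries, as were 116 genes in all (0.454% of those tested). Tmem158 and Tmie were picked after their values were seen. Without any group difference some genes would also take this lowest position. Their expected number was not computed, so the position alone does not set these genes apart and is no sign of an effect.

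Transcripts for protein synthesis and energy use depended on which library was counted. Of 80 cytosolic ribosomal protein genes, 10 lay below both garlic libraries (12.5%, beside 9.91% of all genes) and 3 above (3.75%, beside 4.21%). The median log2 change was -0.37. It was -0.73 without curcumin replicate 2 and 0.09 without garlic replicate 2, so the direction rested on garlic replicate 2. With the covariate for detected genes it was 0.02. Rpl37 stood at 8.62, 11.5 and 9.61 CPM against 14.8 and 32.3 CPM (log2 change -1.25 ± 0.48, and -0.58 without garlic replicate 2). All 13 mitochondrially encoded genes had a negative change (median -0.49), and 4 lay below both garlic libraries (30.8%, beside 9.91%), among them mt-Atp8, a subunit of ATP synthase, at 10.7, 28.4 and 17.3 against 40.7 and 63.1 CPM (-1.47 ± 0.50). Without curcumin replicate 2, 11 of the 13 lay below (84.6%, beside 26.1% of all genes), and the median was -0.86. It was -0.12 without garlic replicate 2, -0.26 without curcumin replicate 1 and 0.32 with the covariate for detected genes, which turned its direction. For 75 nuclear genes of oxidative phosphorylation the median was 0.12, and without curcumin replicate 2 it was -0.44. Long neuronal channel and adhesion genes had a median of 0.12, and 28 of 36 changes were positive, but 1 of 36 lay above both garlic libraries (2.78%, beside 4.21% of all genes). The median turned to -0.26 without curcumin replicate 1, to -0.16 without garlic replicate 2 and to -0.51 with the covariate. Their scores were 0.99, -0.32 and 0.18 with curcumin and 0.57 and -0.12 with garlic extract. In curcumin replicate 1 the long genes were high while the ribosomal (-0.85) and nuclear respiratory (-1.16) scores were low. Whether RNA quality has a part in this was not tested.

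Other fits called a few genes, most of them lower with curcumin. DESeq2 called 6 lower (0.0239% of 25146 tested), which were Slc5a7, Foxd2, Lhx8, Ddn, a numbered gene model and an unnamed ID. Without a filter on low counts edgeR called 26 lower (0.0518% of 50209 tested) and 19 higher (0.0378%). Leaving out garlic replicate 1 gave 2 lower (0.00643%), Nts and an unnamed ID, and leaving out garlic replicate 2 gave 1 (0.00325%), Ddn. Leaving out curcumin replicate 2 gave 18 genes called lower (0.071% of 25358 tested) and 0 higher, 12 of them with a proper symbol, among them Atp5k, Pdap1, Cend1, Pcbp1 and Ppia. Ppia, which encodes the abundant folding enzyme cyclophilin A, stood at 30.6, 227 and 46.8 CPM with curcumin and at 124 and 224 CPM with garlic extract, so the library left out stood well above the other curcumin libraries. With garlic replicate 1 left out as well, a choice made after seeing these libraries, edgeR called 257 genes lower (0.834% of 30818 tested) and 85 higher (0.276%). That fit sets curcumin replicates 1 and 3 against garlic replicate 2 alone, which is assumed to vary like the libraries of the other groups. In the ribosomal, nuclear respiratory and small neuronal lists garlic replicate 2 scored 0.26, -0.05 and 0.23, above garlic replicate 1 (-0.45, -0.56 and -0.40). The calls thus cannot be separated from the choice of the library kept. Among the 257 lower genes were 15 of 80 cytosolic ribosomal genes, 14 of 75 nuclear respiratory genes and 10 of 29 small neuronal proteins, and 0 members of these lists were among the 85 higher genes. Log2 changes there were -2.10 for Nts, -1.85 for Bex1, -2.13 for Avp and -1.63 for Oxt. For each of them the garlic library kept was the higher of the pair (55.9 against 27.8, 141 against 72.0, 816 against 149 and 510 against 249 CPM). With all 5 libraries Avp and Oxt overlapped between the groups. Slc5a7, Foxd2, Lhx8 and Ddn, called by DESeq2 with all libraries, were not called in that fit, and for them the garlic library kept was the lower of the pair.

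Genes at higher levels with curcumin had larger p-values. Mtus2, which encodes a microtubule-associated protein, had the smallest. It stood at 70.1, 55.7 and 55.4 CPM with curcumin and at 36.4 and 24.0 CPM with garlic extract, against 31.1 ± 5.26 CPM in diabetes and 30.8 ± 3.93 CPM in control. The curcumin libraries were the highest 3 of the series, while garlic replicate 1 lay within the untreated range and garlic replicate 2 just below it (log2 change 1.00 ± 0.29). Cacng5, an auxiliary subunit of AMPA receptors, stood at 45.4, 46.1 and 35.0 CPM against 23.6 and 19.7 CPM (0.96 ± 0.32). Cntnap1, which encodes a protein of the junctions flanking nodes of Ranvier, stood at 349, 306 and 300.2 CPM against 220 and 171 CPM (0.70 ± 0.30). Cacna1a, the pore of P/Q-type calcium channels, stood at 252, 188 and 200 CPM against 134 and 112 CPM (0.79 ± 0.31). In each of these 4 genes the curcumin libraries were above every other library of the series, which held for 128 genes in all (0.501% of those tested). The limit given above for the lowest position applies to this highest position too.

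Nicotinic receptor genes were part of that set. Chrna3, Chrnb4 and Chrnb3 encode subunits of nicotinic acetylcholine receptors that are abundant in the medial habenula, a neighbour of the thalamus, and were named after their values were seen. Chrna3 stood at 11.7, 19.5 and 8.47 CPM with curcumin and at 4.83 and 4.42 CPM with garlic extract, with the untreated libraries at 0 to 5.57 CPM (log2 change 1.51 ± 0.93). Chrnb4 stood at 2.41, 3.13 and 2.63 CPM against 0.930 and 0.737 CPM (1.70 ± 1.81). Chrnb3 stood at 7.38, 5.26 and 3.32 CPM against 1.02 and 0.474 CPM (2.82 ± 1.76). The 3 subunits were therefore 2.86, 3.27 and 7.13 times as high in the mean, above every other library, and each far from passing the test. Gpr151, another habenular gene, overlapped at 2.56, 0.546 and 2.77 against 1.24 and 1.63 CPM. Pou4f1, a habenular factor, overlapped at 0, 18.9 and 0 against 0.221 and 0.0527 CPM, high in curcumin replicate 2 only. The 24 thalamic and habenular genes had a median change of 0.40, which was 0.03 without curcumin replicate 2, and their scores were -0.09, 0.24 and 0.09 against 0.12 and -0.10.

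Several of the higher genes rested on 1 library. Sema3f, a guidance cue for axons, stood at 35.3, 129 and 30.7 CPM against 27.9 and 17.9 CPM (log2 change 1.5 ± 0.48), high in curcumin replicate 2 and with a change of 0.47 without it. Sox14, a factor of inhibitory neurons in thalamus and midbrain, stood at 6.11, 17.2 and 3.17 CPM against 1.24 and 1.53 CPM (2.67 ± 0.92, and 1.69 without that library). Spp1, which encodes osteopontin, stood at 8.09, 63.9 and 3.77 CPM against 4.12 and 3.69 CPM (2.69 ± 0.97, and 0.55 without it). Slc6a3 had a change of 3.51 ± 1.26 that was 0.33 without curcumin replicate 1, and it overlapped the garlic libraries. Plch2, a phospholipase C, was more even at 71.4, 97.2 and 54.8 CPM against 37.5 and 44.1 CPM (0.87 ± 0.29, and 0.58 without curcumin replicate 2). Hcn2, a pacemaker channel, stood at 201, 482 and 183 CPM against 183 and 117 CPM (0.95 ± 0.37, and 0.31 without curcumin replicate 2).

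Lars2 and Mir6236 are annotations known to collect reads of ribosomal RNA in mouse data. Mir6236 stood at 1982, 414 and 2228 CPM with curcumin and at 279 and 202 CPM with garlic extract (log2 change 2.68 ± 0.94), and Lars2 at 2211, 603 and 2854 CPM against 565 and 496 CPM (1.83 ± 0.68). Both were also high in diabetes replicates 1 to 3. With the number of detected genes as a covariate the changes reversed, to -0.76 for Mir6236 and -1.04 for Lars2. As that number differed between the treatments, the reversal does not settle the direction.

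**Figure D4:**
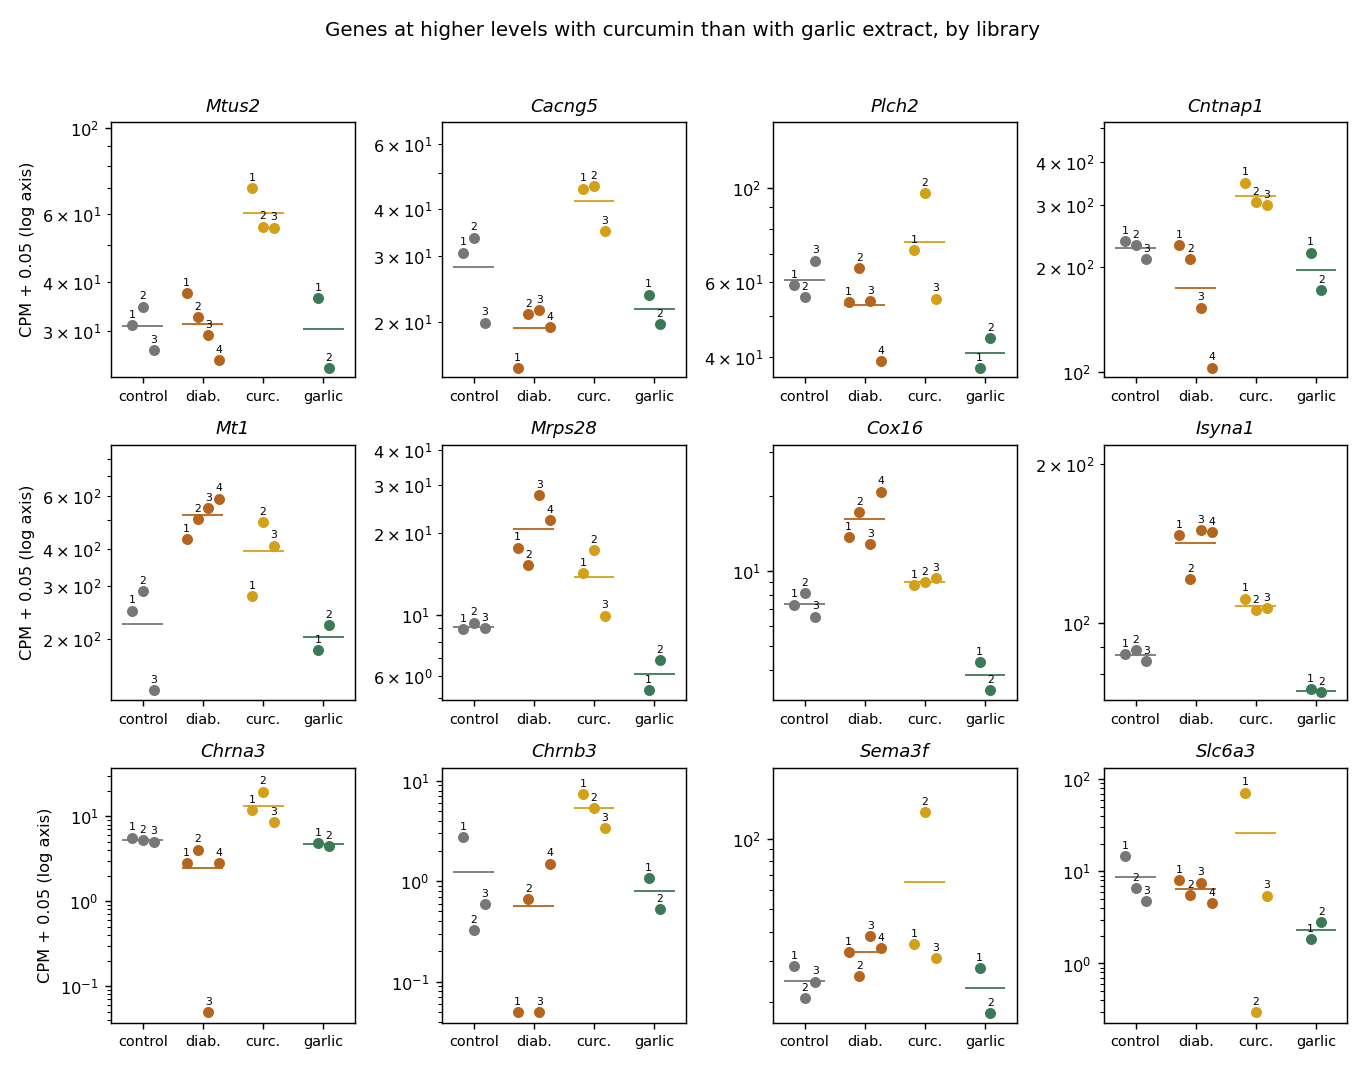
CPM of 12 genes with a higher mean under curcumin than under garlic extract, each point a library with its replicate number and each bar the group mean; the y axis is CPM plus 0.05 on a log scale. For Mtus2, Cacng5, Cntnap1, Chrna3 and Chrnb3 the curcumin libraries are the highest of the series, for Cox16, Isyna1 and Mrps28 the garlic libraries are the lowest, and for Sema3f and Slc6a3 the mean rests on 1 library.

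In some genes the garlic libraries, not the curcumin libraries, stood apart. Cox16, an assembly factor of respiratory complex IV, stood at 8.71, 8.94 and 9.32 CPM with curcumin and at 4.25 and 3.26 CPM with garlic extract, against 16.1 ± 3.66 CPM in diabetes and 7.27 ± 0.794 CPM in control. Curcumin libraries lay between the diabetes and the control libraries, and garlic libraries below all 10 others (log2 change 1.25 ± 0.45). Mrps28, a mitochondrial ribosomal protein, stood at 14.2, 17.2 and 9.91 CPM against 5.27 and 6.79 CPM (1.19 ± 0.41). Isyna1, the enzyme that makes inositol phosphate from glucose 6-phosphate, stood at 111, 105 and 106 CPM against 74.6 and 73.8 CPM, with 141 ± 13.7 CPM in diabetes and 86.6 ± 2.06 CPM in control (0.54 ± 0.22). In 42 genes (0.164% of those tested) both garlic libraries were below all 10 others, and in 150 (0.587%) both were above. Such positions also arise without any group difference, so they are no sign of an effect by themselves.

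Fstl5 showed the reverse order. This follistatin-like gene stood at 26, 26.7 and 37.3 CPM with curcumin and at 56.3 and 55.4 CPM with garlic extract, beside 32.4 ± 2.42 CPM in diabetes and 56.4 ± 1.24 CPM in control. Curcumin libraries overlapped those of diabetes and were below control, and garlic libraries were above diabetes and within the range of control (log2 change -0.90 ± 0.25). Zic1, a factor of thalamus and septum, was ordered likewise at 21.7, 18.7 and 47.6 against 60.3 and 67.7 CPM, with 31.2 ± 9.11 CPM in diabetes and 78.1 ± 18.4 CPM in control (-1.12 ± 0.36). Junb, an immediate early gene of the AP-1 family, stood at 9.56, 19.6 and 25.4 CPM against 32.0 and 32.2 CPM, with 87.9 ± 19.8 CPM in diabetes and 22.1 ± 1.98 CPM in control (-0.82 ± 0.33, and -0.52 without curcumin replicate 1). Both treatments were below every diabetes library for Junb, and curcumin overlapped control. As the 2 treatments are set beside the same diabetes and control libraries, these positions are not independent. Of 25 immediate early genes 4 were below both garlic libraries (16%, beside 9.91% of all genes), Junb, Fosb, Npas4 and Nr4a1, and 0 above. The list's median was -0.18, and 0.08 with the covariate for detected genes.

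The metallothioneins Mt1 and Mt2, neighbouring genes for small metal-binding proteins that respond to zinc, glucocorticoids and oxidants, differed between the treatments in opposite directions. Their promoters are shown because the 2 genes share a type of control element and differed in direction, together with that of Nts, the peptide of smallest p. Each line gives the 250 bases before the RefSeq gene start, 5′ to 3′ on the strand of the gene, from build GRCm38.p6, which is not the build of the counts. Capitals mark the core of the metal response element, TGCACNC or TGCGCNC on either strand, in Mt1 and Mt2 and the AP-1 letters TGACTCA on either strand in Nts.

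Mt1 (chr8:94178839-94179088, plus strand): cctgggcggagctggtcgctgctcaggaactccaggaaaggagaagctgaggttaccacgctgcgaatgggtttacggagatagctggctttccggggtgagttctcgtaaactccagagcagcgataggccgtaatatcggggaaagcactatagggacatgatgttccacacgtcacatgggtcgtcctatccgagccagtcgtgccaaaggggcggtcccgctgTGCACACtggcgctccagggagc
Mt2 (chr8:94172368-94172617, plus strand): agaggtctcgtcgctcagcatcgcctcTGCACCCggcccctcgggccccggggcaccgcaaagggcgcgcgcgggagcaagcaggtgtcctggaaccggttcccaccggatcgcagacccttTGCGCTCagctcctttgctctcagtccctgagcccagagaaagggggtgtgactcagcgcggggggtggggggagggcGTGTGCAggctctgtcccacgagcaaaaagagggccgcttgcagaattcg
Nts (chr10:102490419-102490668, minus strand): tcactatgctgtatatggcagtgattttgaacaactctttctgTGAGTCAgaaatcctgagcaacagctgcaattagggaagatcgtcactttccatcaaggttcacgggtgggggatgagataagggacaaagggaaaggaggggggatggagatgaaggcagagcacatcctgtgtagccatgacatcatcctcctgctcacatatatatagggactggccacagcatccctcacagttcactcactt

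The Mt1 window held 1 match, starting 23 bases before the gene start, and the Mt2 window held 3, starting 223, 128 and 50 bases before it. One or more such matches were present in 21.4% of the 32851 windows of this length in the table, and 3 or more in 1.26%. The Nts window held 1 AP-1 match, 207 bases before the start, and 4.46% of all windows held one. These are matches of letters and do not show binding. Bases after the RefSeq gene start were not searched, so the counts hold for these windows and do not compare whole promoters.

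Mt1 stood at 278, 491 and 410 CPM with curcumin and at 184 and 222 CPM with garlic extract. The curcumin libraries overlapped those of diabetes (517 ± 67.4 CPM) and control (224 ± 80.2 CPM), and the garlic libraries were below every diabetes library and overlapped control. The log2 change was 0.95 ± 0.32. Mt2 stood at 0.142, 2.33 and 1.34 CPM against 6.47 and 7.11 CPM (-2.41 ± 1.03), with 4.46 ± 2.52 CPM in diabetes and 3.18 ± 2.76 CPM in control. Neither gene overlapped between the treatments. Mt3, the brain form, stood at 315, 604 and 415 CPM against 218 and 413 CPM. Mt1 and Mt2 are close in sequence, and how reads that match several places were counted is not given in the sources used here, so the split between them is uncertain.

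Of 30 NRF2 target and antioxidant genes 1, Tkt, an enzyme of the pentose phosphate pathway, lay above both garlic libraries (267, 302 and 244 against 204 and 205 CPM), 3.33% beside 4.21% of all genes, and 0 lay below (beside 9.91%). Without garlic replicate 1, 12 lay below (40.0%, beside 23.0% of all genes) and 4 above (13.3%, beside 15.3%). With curcumin replicate 2 left out, 9 lay below (30.0%, beside 26.1%). The median log2 change was -0.06, and it took either sign over the settings, at -0.20 without curcumin replicate 2, 0.14 without garlic replicate 2 and 0.36 with the covariate for detected genes. Nfe2l2, which encodes NRF2, stood at 17.1, 17.9 and 15.5 CPM against 16.6 and 15.7 CPM. Gclc, the first enzyme of glutathione synthesis, stood at 62.1, 56.3 and 62.3 CPM against 69.6 and 54.8 CPM, and Nqo1 and Hmox1, 2 classical targets, at 2.27 to 8.64 and 0.892 to 6.11 CPM with curcumin against 5.01 and 5.16, and 3.81 and 4.58 CPM. All 4 overlapped between the groups.

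Cbs, the enzyme that joins homocysteine to serine and can make hydrogen sulfide, was even within each group. It stood at 56.5, 59.7 and 56.2 CPM with curcumin and at 40.7 and 40.5 CPM with garlic extract, beside 52.6 ± 7.17 CPM in diabetes and 42.3 ± 16.9 CPM in control. The mean was 1.42 times as high with curcumin (log2 change 0.50 ± 0.31), and the garlic libraries were below every diabetes library. Sqor, which oxidizes sulfide, Got2 and Gss, which completes glutathione, were also higher in every curcumin library, making 4 of 19 tested sulfur genes (21.1%, beside 4.21% of all genes) and 0 lower. Got2 stood at 153, 201 and 183 CPM against 103 and 146 CPM (0.52 ± 0.25, with 0.31 without garlic replicate 1 and 0.79 without garlic replicate 2). Cth, the other hydrogen sulfide enzyme, stood at 1.99, 4.96 and 2.03 CPM against 3.19 and 1.84 CPM and overlapped. The list median was 0.26. Without curcumin replicate 2 it was -0.18, with 5 genes above (26.3%, beside 12.6% of all genes) and 4 below (21.1%, beside 26.1%), so the direction of the list rested on that library.

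Vascular, astrocyte and myelin lists moved with curcumin replicate 2. Of 24 endothelial and mural genes, 22 had a positive change (median 0.66, and 0.23 without that library), and 5 lay above both garlic libraries, Vwf, Esam, Acta2, Tagln and Myh11 (20.8%, beside 4.21% of all genes). Without that library 6 lay above (25.0%, beside 12.6%) and 4 below (16.7%, beside 26.1%). Cldn5, a tight junction protein of vessels, stood at 16.6, 148 and 17.2 CPM against 30.5 and 24.9 CPM. Summed CPM of the list was 652.7, 1157 and 485.0 with curcumin and 658.0 and 441.0 with garlic extract. Of 20 astrocyte genes 1, Aldh1l1, lay above (5.0%) and the median was 0.21, and 0.00 without that library. Gfap, the astrocyte filament, overlapped at 197, 222 and 180 against 142 and 224 CPM. Microglial genes had a median of -0.13, with 4 of 20 below (20.0%, beside 9.91% of all genes) and 2 above, and leaving out curcumin replicate 2 gave a median of -0.14. The 20 myelin genes had a median of -0.01, with Mbp at 2119, 5893 and 1638 against 3109 and 2487 CPM. Leaving out curcumin replicate 2 gave -0.57, with 11 of 20 below (55.0%, beside 26.1% of all genes), and the covariate for detected genes gave 0.64. The 26 tested inflammatory genes had a median of -0.01, with 4 below (15.4%, beside 9.91%) and 0 above. Their median turned to 0.25 under the covariate and was -0.29 when curcumin replicate 2 was left out.

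**Figure D5:**
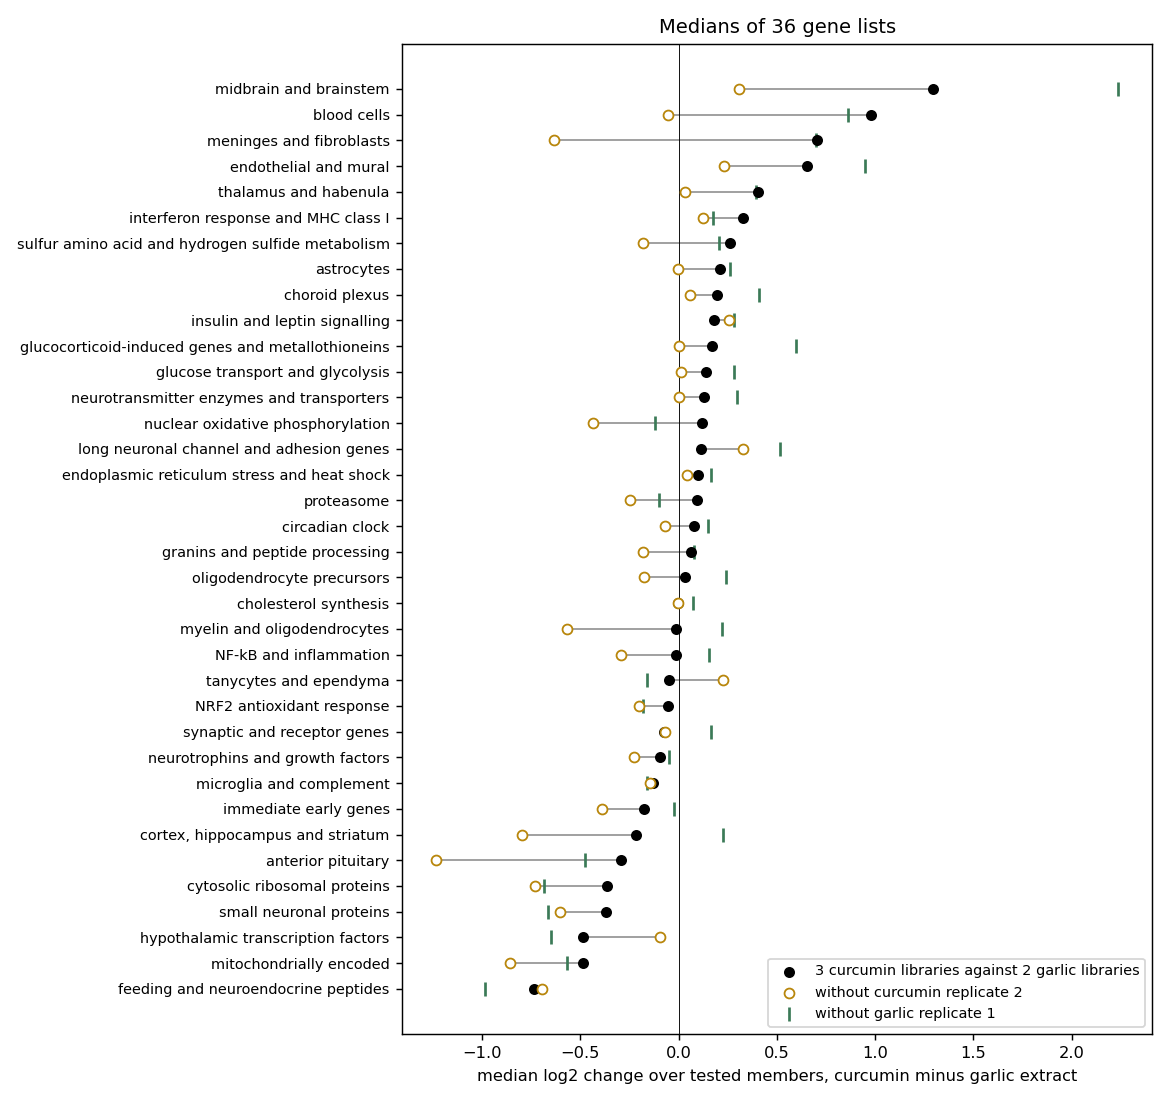
Median log2 change (curcumin minus garlic extract) of 36 gene lists, with all 5 libraries (black), without curcumin replicate 2 (open circles) and without garlic replicate 1 (green ticks). The neuropeptide and mitochondrially encoded lists stay below 0 in all 3 settings, the midbrain and endothelial lists stay above 0, and the hypothalamic transcription factor list moves from -0.49 to -0.10 without curcumin replicate 2.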

How the data were processed

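Hypothalamic RNA was sequenced as stranded poly-A libraries, per the labels' protocols. The authors deposited raw read counts per gene. FastQC, featureCounts and build GRCm39 are named in the submitters' processing notes. Which aligner, annotation, strand setting and rule for multiply mapped reads were used is not given in the sources used here, so near-identical, overlapping and antisense genes are uncertain. Symbols were found for 65.7% of IDs, which held 97.8% of counts. All 12 libraries were fitted with edgeR 4.0.16 in R 4.3.3 (filterByExpr by group, TMM, glmQLFit, glmQLFTest; tested on simulated data). No batch is labelled, and p-values measure the spread between libraries, which may be technical. CPM is relative to TMM-scaled library size, and values after ± are SD for levels and SE for log2 changes. Alternatives used DESeq2 1.42.0, limma 3.58.1 and the changes given at the end.

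Genes named were, in each direction, those 12 with the smallest p and a mean of at least 1 CPM over the 5 libraries and a proper symbol, the 2 of smallest p per list, and 24 chosen genes; Foxd2, Cntnap1, Isyna1, Tmem158, Tmie, Hcn2, the nicotinic and cholinergic genes, single library markers and other list members were added after their values were seen. Some genes that the rule names are not reported here. The 36 gene lists, members and comparisons were chosen with earlier results of these data known. Promoter sequences are RefSeq's (GRCm38.p6), matched by symbol for 3 of 3 genes.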

Additional observations from a re-analysis of the deposited data

How the results depend on the processing

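No gene was called with RLE scaling, limma-voom, a stricter low-count filter, the 5 libraries alone, no control group, a covariate for detected genes or a robust spread. DESeq2 called 6 genes, all lower with curcumin. Without a low-count filter 45 were called, 19 higher and 26 lower, of 50209 tested. Leaving out 1 library gave 0 to 18 calls, with 0 to 18 lower and 0 higher: 18 without curcumin replicate 2, 2 without garlic replicate 1 and 1 without garlic replicate 2. Leaving out curcumin replicate 2 and garlic replicate 1 together, chosen after seeing the data, gave 342 calls, 85 higher and 257 lower. The calls of DESeq2 and those without curcumin replicate 2 shared 0 genes. The causes were not tested.

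Libraries share replicate numbers only: deviations of same-numbered libraries correlated at 0.18 and 0.186, over 2 pairs. These values are not independent, as the deviations of the 2 garlic libraries from their mean mirror each other. They therefore do not show that replicate numbers are shared batches. With the replicate block 0 genes were called, and 680 had an unadjusted p under 0.05 against 408 without it.

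Of 44 log2 changes tracked, all kept their sign in every setting except, with the covariate for detected genes, Lars2 (-1.04) and Mir6236 (-0.76). Medians of 16 of 36 lists were negative, and 12 to 24 over the settings; 25 kept their sign without curcumin replicate 2, where 9 moved by over 1 SD of the replicates, and 24 with the covariate for detected genes, where 21 did. The garlic group has 2 libraries, which limits the precision of every value, and counts of 0 to 2 per curcumin library leave wide ratios for Slc5a7, Foxd2 and Lhx8.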
